A study of Homo sapiens with 8 samples.

Results

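The mitochondrially encoded mRNAs examined here are the transcripts of 10 genes of the mitochondrial chromosome: MT-ND1, MT-ND2, MT-ND3, MT-ND4, MT-ND5, MT-CO1, MT-CO2, MT-CO3, MT-CYB and MT-ATP6. They were taken as listed genes, by matching the transcript identifiers of the count table to GENCODE version 44, and each gene had 1 transcript row. They are 10 of the 37 genes of that chromosome and 10 of the 62639 genes in the table. The measurements came from MOLM-13, a human acute myeloid leukemia cell line, in 8 libraries. The 4 shPTBP1 libraries came from cells with a doxycycline (dox) inducible shRNA against PTBP1, which encodes a splicing factor, and the 4 shSCR libraries from cells with a scrambled shRNA. All cells of both groups had received dox for 9 days, so the induced shRNA and a truncated NGFR receptor were expressed in both, along with mCherry, and no library came from untreated cells. Each group used a single shRNA construct, and the replicates, which the labels call biological, were separate samples of these cells. Other differences between the cells carrying each shRNA therefore cannot be told apart from the knockdown, and the p values measure only the spread between samples, which may be technical.

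The mitochondrial genome encodes core subunits of the respiratory chain and of ATP synthase, 2 ribosomal RNAs and a set of tRNAs, and all other mitochondrial proteins come from nuclear genes. Both of its strands are transcribed into long precursors, which are cut mostly at the tRNAs that lie between the coding genes, after which most mRNAs receive a poly(A) tail that also completes the stop codon of several of them. Because the precursor is shared, differences between the levels of these mRNAs are commonly discussed in terms of processing, stability and decay as well as transcription. Tetracyclines, the family of dox, are known inhibitors of mitochondrial ribosomes.

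All 10 genes lie on the plus strand of the mitochondrial chromosome, which is 16569 bases long in GRCh38 (hg38). Each is annotated as a single exon without introns, so that its listed mRNA is the coding region alone, from 346 bases in MT-ND3 to 1812 bases in MT-ND5. In genome order, MT-ND1, MT-ND2, MT-CO1, MT-CO2 and the following genes are separated by at least 1 tRNA gene, with 1 exception. MT-ATP6 runs directly into MT-CO3 and shares 1 base with it, with no tRNA between them, and the start of MT-ATP6 lies inside MT-ATP8. These junctions, and the junction of MT-ND5 with MT-ND6, the only protein gene of the minus strand, are shown because several of the comparisons turn on MT-ATP6, MT-CO3 and MT-ND6. The sequences are those of the hg38 reference, 5′ to 3′ on the plus strand. Capitals mark the 46 bases that MT-ATP8 shares with MT-ATP6 (chrM:8515-8584), the 1 base that MT-ATP6 shares with MT-CO3 (chrM:9178-9237) and the stop codon of MT-ND5, after which the last letters belong to MT-ND6, read on the other strand (chrM:14119-14178).
MT-ATP8/MT-ATP6: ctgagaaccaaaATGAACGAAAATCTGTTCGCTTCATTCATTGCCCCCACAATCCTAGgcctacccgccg
MT-ATP6/MT-CO3: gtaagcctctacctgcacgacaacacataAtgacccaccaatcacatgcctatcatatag
MT-ND5/MT-ND6: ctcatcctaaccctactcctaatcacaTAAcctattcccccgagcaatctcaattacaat

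The 3′ ends of the coding regions also differ within the group. The next sequences are the last 30 bases of MT-CO1 (chrM:7416-7445) and MT-CO2 (chrM:8240-8269), which end in an annotated stop codon, and of MT-ND1 (chrM:4233-4262) and MT-CYB (chrM:15858-15887), which end in an incomplete codon. Capitals mark the last codon or the part of it that the genome encodes. MT-ATP6 and MT-ND5 also end in a complete codon, and MT-ND2, MT-CO3, MT-ND3 and MT-ND4 in a lone T.
MT-CO1: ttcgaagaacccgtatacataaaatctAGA
MT-CO2: tttgaaatagggcccgtatttaccctaTAG
MT-ND1: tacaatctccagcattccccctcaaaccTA
MT-CYB: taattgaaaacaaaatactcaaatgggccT

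The libraries were close in depth, with totals of 1528449 to 1613342 counts. PTBP1 itself had 10, 15, 13 and 23 counts in the shPTBP1 libraries and 65, 90, 64 and 78 in the shSCR libraries. Its level was lower by a log2 fold change of -2.26 ± 0.22 (SE) in edgeR's quasi-likelihood test, with a Benjamini-Hochberg adjusted p of 7.18e-05. Of 7 myeloid markers, 6 were counted in every library, with CD33 at 66.4 to 98.8 counts per 1000000 (CPM), and SPI1 had 1 count in all. Of 7 markers of other cell types, CD3E, MS4A1, HBB and PPBP were at 0 everywhere, and the summed level of the 7 was 0.634 to 3.15 CPM in the shPTBP1 libraries and 0 to 2.61 CPM in the shSCR libraries.

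A library stood apart in its mitochondrial content. In shSCR replicate 2 the chromosome took 1.09% of all counts, against 1.74% to 2.18% in the other 7 libraries. All 10 mRNAs had their lowest CPM of the 8 libraries there, at between 56.2% (MT-ND3) and 87.9% (MT-ND5) of the mean of the other 3 shSCR libraries. The 2 ribosomal RNAs were at 50.8% (MT-RNR1) and 56.6% (MT-RNR2) of that mean, and the sum of the 10 mRNAs was at 69.9%. The same library had the longest count-weighted median length of annotated transcript (1512 bases, against 1355 to 1511) and the lowest share of cytoplasmic ribosomal protein mRNAs (12.02%, against 12.5% to 14.2%). The part of these measures in the results was not tested, and the levels, sums, shares and ratios that turn on it are also given without this library. In bulk RNA, less mitochondrial RNA per cell and fewer cells rich in it cannot be told apart.

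The summed level of the 10 mRNAs differed between the groups by less than the spread between libraries. The sum was 5358, 4975, 5069 and 5772 CPM in the shPTBP1 libraries and 5697, 3707, 5041 and 5164 CPM in the shSCR libraries. The shPTBP1 libraries lay inside the range of the shSCR libraries except for replicate 4, and shSCR replicate 2 lay below all others. The means were 5293 ± 358 (SD, n = 4) and 4902 ± 846 CPM (SD, n = 4), or 7.98% apart, with p = 0.514 in an exact two-sided permutation test, whose smallest possible p with 4 libraries a group is 0.0286. Without shSCR replicate 2 the shSCR mean was 5301 ± 349 CPM (SD, n = 3), the difference was -7.26 CPM and the exact permutation p was 0.971. Over all genes of the mitochondrial chromosome, in which the rRNAs take most counts, the groups were 20.4% apart (exact permutation p = 0.0571), or 8.43% without shSCR replicate 2 (p = 0.171, exact permutation test).

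**Figure D1:**
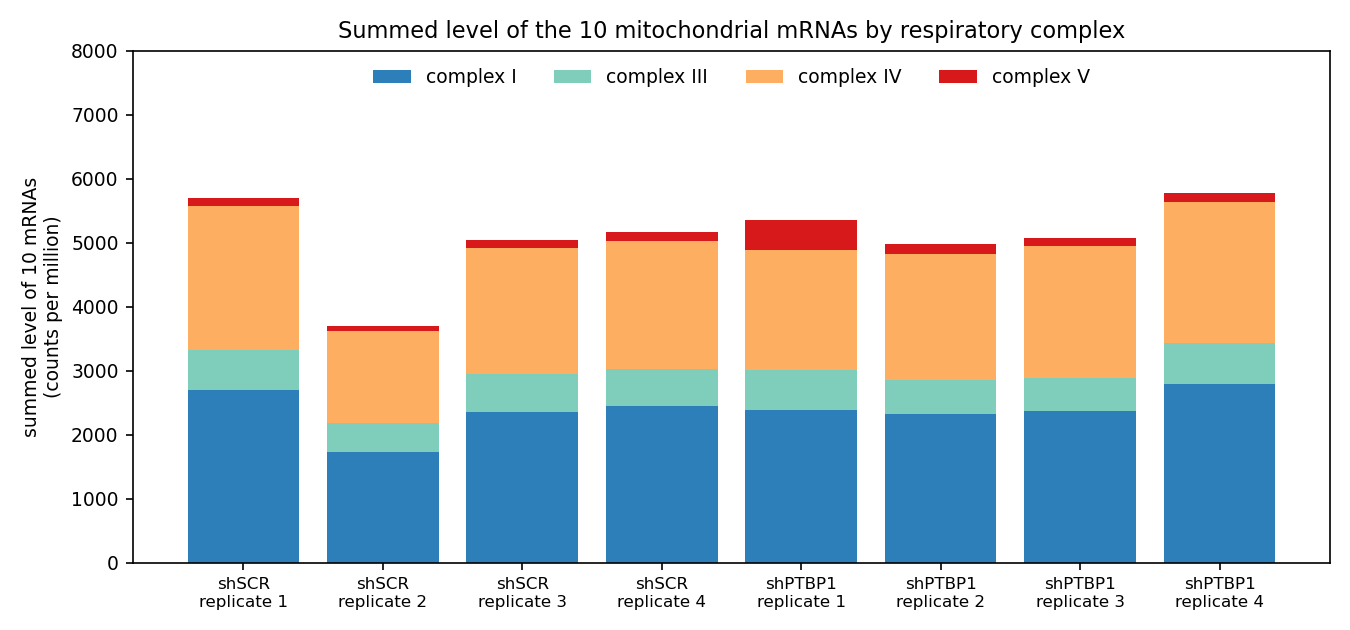
Summed level of the 10 mitochondrial mRNAs, in counts per 1000000 of the library total (CPM), as stacked bars for each of the 8 libraries, coloured by the respiratory complex the mRNAs encode (MT-ATP6 is the part of complex V). The bar of shSCR replicate 2 is the lowest at 3707 CPM, the other 7 lie between 4975 and 5772 CPM, and the MT-ATP6 part is widest in shPTBP1 replicate 1.

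The sums by complex also overlapped. The mRNAs of complex I, the NADH dehydrogenase, summed to 2467 ± 214 CPM (SD, n = 4) in the shPTBP1 group and 2310 ± 415 CPM (SD, n = 4) in the shSCR group. Those of complex IV, the cytochrome c oxidase, summed to 2027 ± 139 and 1918 ± 347 CPM, and MT-CYB, the subunit of complex III, stood at 579 ± 67.8 and 559 ± 72.3 CPM. The 3 comparisons had exact permutation p values of 0.629, 0.743 and 0.714. The differences changed sign without shSCR replicate 2, to -37.3, -52.6 and -15.0 CPM, with exact permutation p values of 0.686, 0.629 and 0.743.

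Compared per length, the 10 mRNAs spanned a range of 10.9-fold in the shSCR group. Full-length cDNA was sequenced, so a count need not rise with length, and whether it did was not tested. If it did not, the division places long mRNAs such as MT-ND5 (1812 bases) and MT-CO1 (1542 bases) too low against MT-ND3 (346 bases). The order and range per length therefore depend on the division. MT-CO2 was highest at 1748 ± 314 CPM per kilobase (SD, n = 4) and lay above every other of the 10 in all 8 libraries. MT-ND4 (694 ± 146), MT-ND1 (674 ± 141), MT-CO3 (605 ± 99.5) and MT-CYB (490 ± 63.4 CPM per kilobase) followed, and each neighbouring pair among these overlapped within the shSCR group. MT-ND2 came next at 324 ± 49.5 CPM per kilobase, below MT-CYB and above MT-ND3 in 8 of 8 libraries. The last 4 were not separated: MT-ND3 (173 ± 47.4), MT-ND5 (171 ± 13.3), MT-ATP6 (169 ± 23.9) and MT-CO1 (161 ± 37.0 CPM per kilobase) differed by less than their spread. The first 6 places were the same in the shPTBP1 group. MT-CO2 and MT-CO1 of complex IV thus stood first and last per length, though the last place was not separated. In CPM without length, MT-CO2 was also highest in the shSCR group, with a mean of 1196. The means of MT-ND5 (311) and MT-CO1 (248) lay above those of MT-ATP6 (115) and MT-ND3 (59.9), the lowest of the 10.

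None of the 10 mRNAs passed an adjusted p of 0.05 between the groups in edgeR, where 5.54% of the 7597 genes tested did. At an unadjusted p under 0.05 there were 2 of 10, MT-CO1 and MT-ATP6, beside 19.2% of all genes tested. Without shSCR replicate 2 there were 4 of 10, MT-CO1 and MT-ATP6 (higher) and MT-ND1 and MT-CO3 (lower). The share over all genes in that setting is not given here. With all libraries, DESeq2 and limma-voom called none of the 10 either, with 3 and 1 of them at an unadjusted p under 0.05. The lowest adjusted p by DESeq2 was that of MT-CO1, 0.0504, just above the threshold. Over all genes DESeq2 called 157 lower and 157 higher of 5293 given an adjusted p, and limma-voom 220 and 156 of 7597. With no filter on low counts, edgeR called 2 of the 10, MT-CO1 and MT-ATP6, with adjusted p values of 0.00806 and 0.00526. Over all genes that setting called 279 lower and 216 higher of 16474 tested. The levels of none of the 10 were free of overlap between the groups, against 12.7% of all genes tested. The median log2 fold change of the 10 was 0.14, from -0.10 (MT-CO3) to 0.96 (MT-ATP6), beside a median of -0.00014 over all genes tested. Without shSCR replicate 2 the values ran from -0.21 (MT-CO3) to 0.86 (MT-ATP6). Those of MT-ND1, MT-ND3, MT-CO2 and MT-CYB were then below 0 as well. Without shPTBP1 replicate 1 that of MT-ATP6 was 0.30. All 10 passed the filter on low counts.

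**Figure D2:**
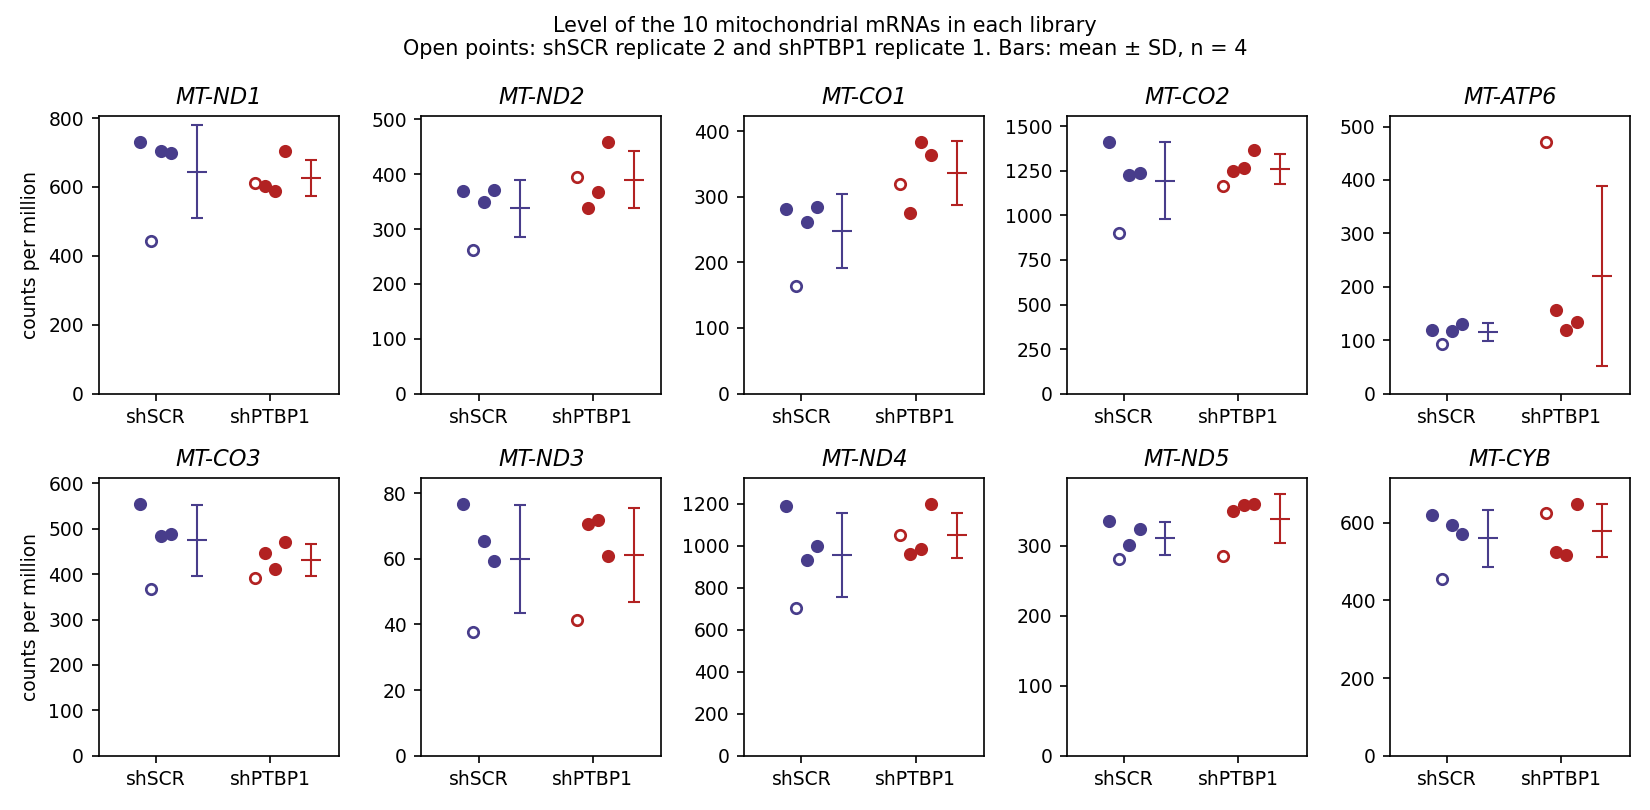
Level of each of the 10 mitochondrial mRNAs in CPM, 1 panel per gene in genome order, with a point for each library (blue shSCR, red shPTBP1) and the mean ± SD of 4 libraries beside them. The open blue point, shSCR replicate 2, is the lowest in every panel, and the open red point, shPTBP1 replicate 1, stands at 472 CPM for MT-ATP6, where all others lie between 91.9 and 156 CPM.

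MT-CO1 encodes the catalytic core subunit of complex IV. Its level was 319.7, 275, 384 and 364 CPM in the shPTBP1 libraries and 282, 164, 261 and 284 CPM in the shSCR libraries. Of the shPTBP1 libraries 3 lay above every shSCR library, while replicate 2 lay within their range. The log2 fold change was 0.47 ± 0.15 (SE) in edgeR, with an adjusted p of 0.0984, and 0.48 in DESeq2, with an adjusted p of 0.0504. The edgeR value became 0.31 ± 0.10 without shSCR replicate 2, with an adjusted p of 0.120, and so kept its sign but lost a part of its size.

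MT-CO2 and MT-CO3, which encode the other core subunits of complex IV, did not follow MT-CO1. MT-CO2 stood at 1163, 1248, 1265 and 1367 CPM in the shPTBP1 libraries and 1415, 900.4, 1229 and 1239 CPM in the shSCR libraries, with full overlap of the groups. MT-CO3 stood at 392, 447, 412 and 471 CPM in the shPTBP1 libraries and 555, 368, 485 and 489 CPM in the shSCR libraries. All shPTBP1 libraries were thus below 3 of the 4 shSCR libraries and above the remaining one, replicate 2. The log2 fold change of MT-CO3 was -0.10 ± 0.11 (SE) with all libraries (adjusted p = 0.682, edgeR). Without shSCR replicate 2 it was -0.21 ± 0.080, with an adjusted p of 0.172 in edgeR. That of MT-CO2 was 0.11 ± 0.11 with all libraries (adjusted p = 0.645, edgeR) and -0.0083 without shSCR replicate 2.

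MT-ATP6 encodes a subunit of the proton channel of ATP synthase. Its level was 472, 156, 119 and 134 CPM in the shPTBP1 libraries and 119.6, 91.9, 118 and 130.3 CPM in the shSCR libraries. A single library, shPTBP1 replicate 1, held 744 counts of MT-ATP6, while the other 7 held 141 to 247, so that its level was 3.80-fold the mean of the others. With it, the log2 fold change was 0.96 ± 0.35 (SE; adjusted p = 0.143, edgeR). When it was left out, the log2 fold change was 0.30 ± 0.13 (adjusted p = 0.243, edgeR), and the means were 136 ± 18.4 CPM (SD, n = 3) and 115 ± 16.3 CPM (SD, n = 4), with an exact permutation p of 0.171.

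The same library stood out for MT-ND6, a complex I subunit that is not among the 10 mRNAs and lies on the minus strand. MT-ND6 had 190, 53, 60 and 77 counts in the shPTBP1 libraries and 52, 46, 36 and 40 in the shSCR libraries, and all shPTBP1 libraries lay above all shSCR libraries. The log2 fold change of 1.14 ± 0.34 (SE) had an adjusted p of 0.0728 in edgeR. Without shPTBP1 replicate 1 it was 0.57 ± 0.16 (adjusted p = 0.0715, edgeR) and the groups still did not overlap. It was 1.17 ± 0.39 (adjusted p = 0.130, edgeR) without shSCR replicate 2. By DESeq2 with all libraries the adjusted p of MT-ND6 was 0.0257. Of the 4803 genes with a mean above 20 normalized CPM, only 3 in shPTBP1 replicate 1 were at least 2-fold above every other library, namely MT-ATP6, MT-ND6 and LARP4B, which encodes an RNA-binding protein. The other libraries had 0 to 3 such genes each, none of them mitochondrial. In the same library MT-CO3, MT-CO2, MT-ND3 and MT-ND5 had their lowest level of the shPTBP1 group. These genes were chosen after their values were seen. Because the use of strand in the counting is not given in the sources used here, reads of MT-ND6 and of its plus-strand antisense cannot be told apart.

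The complex I subunits among the 10 mRNAs differed little between the groups. MT-ND1 stood at 613, 603, 587 and 703 CPM in the shPTBP1 libraries and 732, 443, 705 and 698 CPM in the shSCR libraries. Apart from shSCR replicate 2, the shSCR values were close to each other, and only shPTBP1 replicate 4 lay among them. The log2 fold change of MT-ND1 was -0.0055 ± 0.13 (SE) with all libraries and -0.16 ± 0.068 without shSCR replicate 2, with adjusted p values of 0.988 and 0.257 in edgeR. MT-ND4, the most abundant complex I mRNA in counts, stood at 963 to 1202 CPM in the shPTBP1 libraries and 703 to 1192 CPM in the shSCR libraries. MT-ND2 stood at 338 to 459.7 and 262 to 371 CPM, MT-ND5 at 286 to 360.3 and 282 to 335 CPM, and MT-ND3, the shortest and least counted of the 10, at 41.2 to 72.0 and 37.8 to 76.9 CPM. Their log2 fold changes with all libraries were 0.17 (MT-ND4), 0.24 (MT-ND2), 0.16 (MT-ND5) and 0.07 (MT-ND3), with adjusted p values from 0.280 to 0.908 in edgeR. They became 0.040 (MT-ND4), 0.13 (MT-ND2), 0.11 (MT-ND5) and -0.11 (MT-ND3) without shSCR replicate 2. MT-CYB had a log2 fold change of 0.09 ± 0.10 (SE), with an adjusted p of 0.712 in edgeR, and of -0.010 ± 0.078 without shSCR replicate 2.

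**Figure D3:**
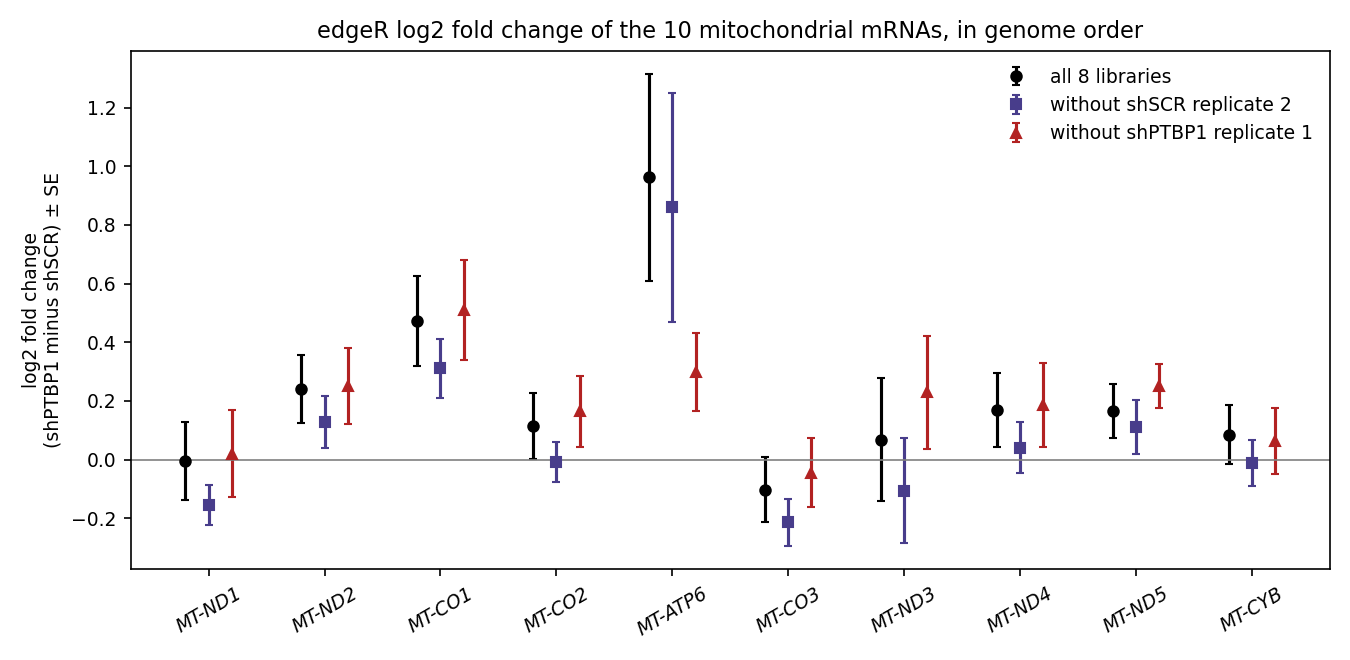
Log2 fold change of each of the 10 mRNAs (shPTBP1 minus shSCR, edgeR) with its standard error, in genome order, with all 8 libraries (black), without shSCR replicate 2 (blue) and without shPTBP1 replicate 1 (red). MT-CO1 lies above 0 in all 3 fits (0.47, 0.31 and 0.51) and MT-CO3 below 0 (-0.10, -0.21 and -0.05), while MT-ATP6 drops to 0.30 without shPTBP1 replicate 1.

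Expressing each mRNA as its share of the counts of all 10 removes how much of a library is mitochondrial. In the shSCR group the SD of the log2 level had a median of 0.26 over the 10 mRNAs, and the SD of the log2 share a median of 0.09. These medians were 0.08 and 0.07 without shSCR replicate 2, so that most of the narrowing rested on that library. In the shPTBP1 group they were 0.16 and 0.11. MT-ND5 went the other way in the shSCR group, with an SD of 0.11 for its log2 level and 0.17 for its log2 share. For comparison, counting error alone gives a median SD of 0.06 in the shSCR group.

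The shares of MT-CO1 and MT-CO3 did not overlap between the groups, and they differed in opposite directions. For levels, 12.7% of all genes tested did not overlap, and a like figure for shares is not given here. MT-CO1 made up 5.97%, 5.53%, 7.58% and 6.31% of the counts in the shPTBP1 libraries and 4.95%, 4.42%, 5.18% and 5.50% in the shSCR libraries. The gap between the nearest libraries was small: 5.53% (95% exact binomial interval 5.03% to 6.06%) in shPTBP1 replicate 2 and 5.50% (5.02% to 6.02%) in shSCR replicate 4. MT-CO3 made up 7.32%, 8.99%, 8.12% and 8.16% in the shPTBP1 libraries and 9.75%, 9.92%, 9.62% and 9.47% in the shSCR libraries, which lay within a narrow band. The mean share of MT-CO1 was 6.35% ± 0.882 (SD, n = 4) against 5.01% ± 0.457 (SD, n = 4), and that of MT-CO3 8.15% ± 0.683 (SD, n = 4) against 9.69% ± 0.192 (SD, n = 4). Both reached the smallest exact permutation p that 4 against 4 libraries allow, 0.0286, which became 0.143 after adjustment over the 10 shares. The intervals cover counting error only.

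Shares of a whole are tied to each other, so the high MT-ATP6 count of shPTBP1 replicate 1, 8.81% of its mitochondrial mRNA counts against 2.10% to 3.13% in the other libraries, lowers all its other shares. With MT-ATP6 left out of the sum, a choice made after the data were seen, the shares of MT-CO1 were 6.62% ± 0.850 (SD, n = 4) and 5.13% ± 0.470 (SD, n = 4) and those of MT-CO3 8.49% ± 0.545 and 9.92% ± 0.194. Both still did not overlap. Without shSCR replicate 2 both kept their groups apart too, each at an exact permutation p of 0.0571 and, after adjustment, 0.190.

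MT-ND1 took a smaller part of the counts in the shPTBP1 libraries, with overlap. Its share was 11.4%, 12.1%, 11.6% and 12.2% in the shPTBP1 libraries and 12.8%, 11.96%, 14.0% and 13.5% in the shSCR libraries. Only shSCR replicate 2 fell inside the shPTBP1 range. The exact permutation p was 0.0857 with all libraries and 0.0286 without shSCR replicate 2, or 0.286 and 0.190 after adjustment over the 10 shares. The shares of the other 7 mRNAs overlapped in both settings. For instance, MT-CO2 had 23.9% ± 1.57 (SD, n = 4) in the shPTBP1 group and 24.4% ± 0.347 (SD, n = 4) in the shSCR group, MT-ND4 19.8% ± 0.684 and 19.4% ± 1.04, and MT-CYB 10.9% ± 0.662 and 11.5% ± 0.661.

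**Figure D4:**
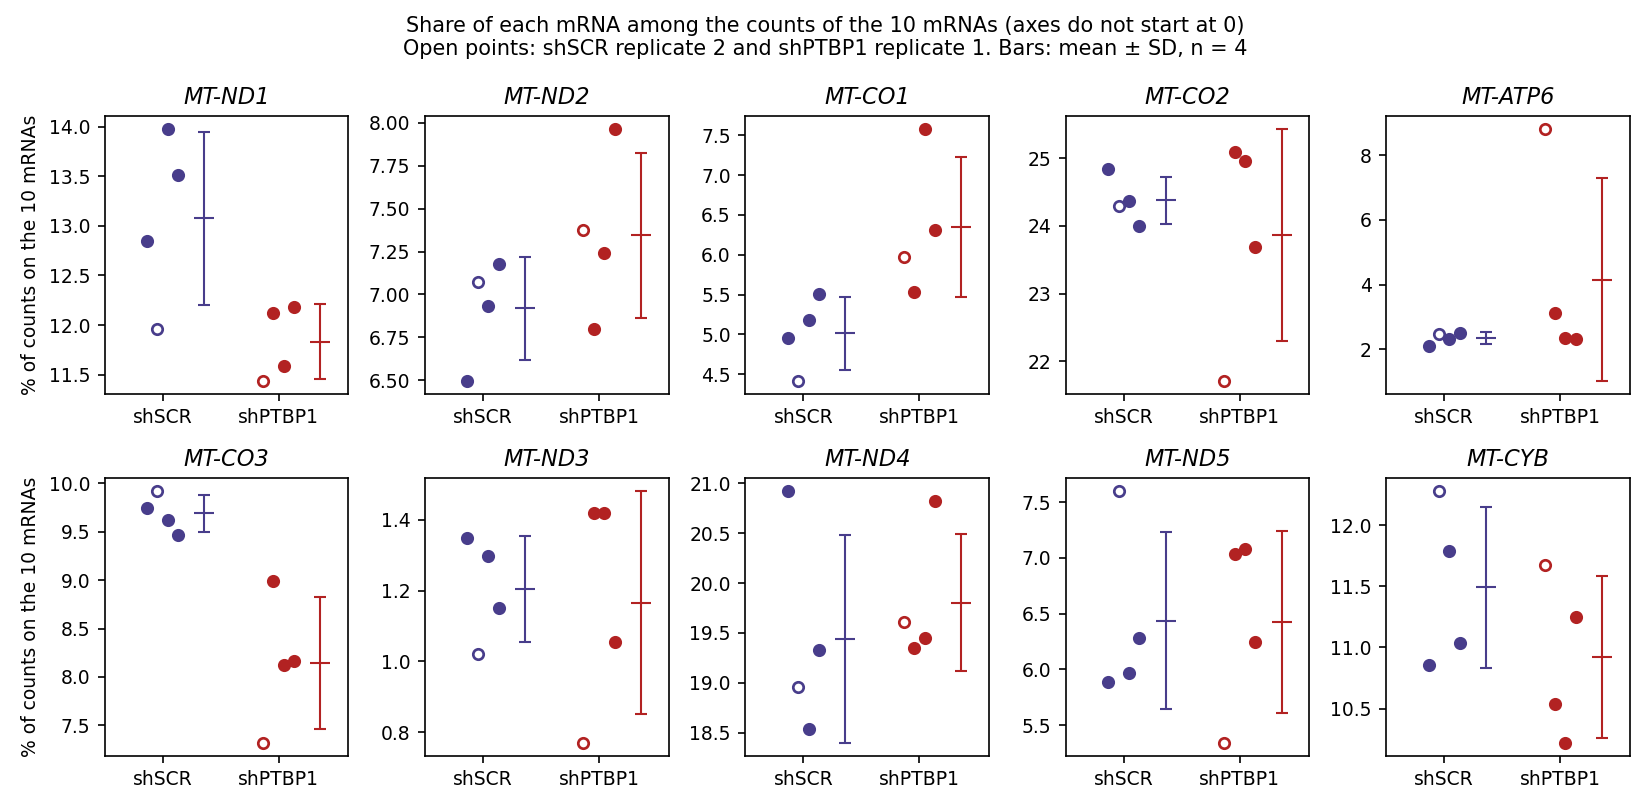
Share of each mRNA among the counts of the 10 mRNAs, in percent, 1 panel per gene with its own axis, a point for each library and the mean ± SD of 4 libraries. All red points lie above all blue points for MT-CO1 and below them for MT-CO3, and for MT-ND1 only shSCR replicate 2 (open blue) falls among the shPTBP1 libraries.

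Ratios between 2 mRNAs of the same library do not depend on the rest of the group. Of 7 ratios examined, between nearby genes, between the first and last gene, between MT-CO2 and MT-CO3 of complex IV and between complexes, 2 did not overlap between the groups: MT-CO2 to MT-CO3 and MT-ATP6 to MT-CO3. As with the shares, a background figure is given here only for levels, 12.7% of all genes tested. The ratio of MT-CO2 to MT-CO3 was 2.97, 2.79, 3.07 and 2.90 in the shPTBP1 libraries and 2.55, 2.45, 2.53 and 2.53 in the shSCR libraries. The shSCR libraries, replicate 2 included, lay close together, and the nearest shPTBP1 library stood above them by more than their whole range. On the log2 scale the difference was 0.22, with SDs of 0.06 (shPTBP1) and 0.03 (shSCR), and an exact permutation p of 0.0286 with and without shSCR replicate 2. After adjustment over the 7 ratios the p was 0.100 with all libraries and 0.150 without that one.

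The ratio of MT-ATP6 to MT-CO3, the pair with no tRNA between its genes, was 1.20, 0.348, 0.289 and 0.285 in the shPTBP1 libraries and 0.215, 0.250, 0.243 and 0.266 in the shSCR libraries. All shPTBP1 libraries were above all shSCR libraries, and replicate 1 was far above the rest. The log2 difference was 0.83 with all libraries (exact permutation p = 0.0286, 0.100 after adjustment) and 0.33 without shPTBP1 replicate 1 (p = 0.0286, exact permutation test). With shSCR replicate 2 left out it was 0.84, the groups stayed apart and the exact permutation p was 0.114. Leaving out any other shSCR library gave exact permutation p values of 0.114 to 0.171. Since both ratios share MT-CO3 as denominator, they are not separate evidence about it.

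The ratio of MT-CO1 to MT-CO2 was 0.275, 0.220, 0.304 and 0.266 in the shPTBP1 libraries and 0.199, 0.182, 0.212 and 0.229 in the shSCR libraries, with overlap of shPTBP1 replicate 2 alone. That of MT-ND1 to MT-ND2 was 1.62 ± 0.116 (SD, n = 4) against 1.89 ± 0.145 (SD, n = 4). Both had an exact permutation p of 0.0571, or 0.100 after adjustment. Without shSCR replicate 2 the groups still overlapped for MT-CO1 to MT-CO2 (exact permutation p = 0.0857) and no longer did for MT-ND1 to MT-ND2 (exact permutation p = 0.0571). With all libraries the other 3 ratios differed by less than their spread: MT-ND4 to MT-ND5 was 3.13 ± 0.457 and 3.06 ± 0.434, MT-ND1 to MT-CYB, the first and last of the 10 on the chromosome, 1.09 ± 0.0769 and 1.14 ± 0.113, and complex I to complex IV 1.22 ± 0.0611 and 1.20 ± 0.0106 (SD, n = 4 in each group). For these the exact permutation p values were 0.857, 0.457 and 0.743. Without shSCR replicate 2 the ratio of MT-ND1 to MT-CYB was lower in every shPTBP1 library, with a log2 difference of -0.14 in place of -0.07 and an exact permutation p of 0.0857, or 0.150 after adjustment over the 7 ratios, while the other 2 still overlapped.

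**Figure D5:**
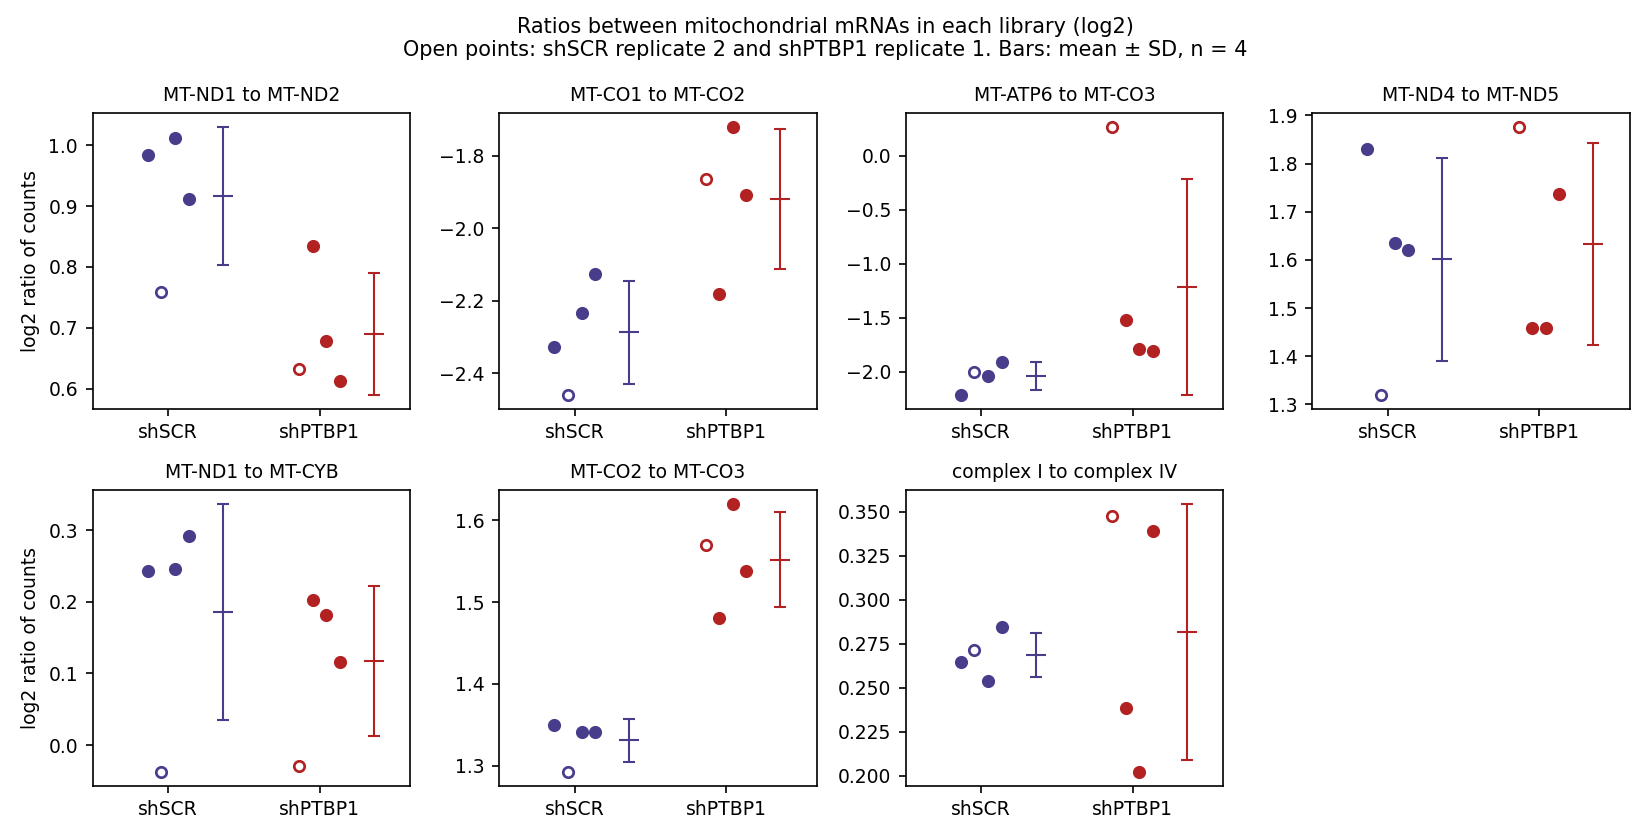
Log2 ratio of counts for 7 pairs of mitochondrial mRNAs or sums of them, 1 panel per ratio with its own axis, a point for each library and the mean ± SD of 4 libraries. The groups are apart for MT-CO2 to MT-CO3 (means 1.55 and 1.33) and for MT-ATP6 to MT-CO3, and overlap in the other 5 panels.

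The remaining genes of the chromosome give the setting of these values. MT-RNR2, the large ribosomal RNA, was the most counted, at 13162 ± 1240.1 CPM (SD, n = 4) in the shPTBP1 group and 10514 ± 2585 CPM (SD, n = 4) in the shSCR group, with a log2 fold change of 0.36 ± 0.15 (SE) and an adjusted p of 0.211 in edgeR. MT-RNR1, the small one, was at 988 ± 72.1 and 760.0 ± 232 CPM, with an adjusted p of 0.231 in edgeR. The shSCR means without replicate 2 were 11792 ± 470.5 CPM (MT-RNR2) and 867 ± 112 CPM (MT-RNR1; SD, n = 3), nearer to the shPTBP1 means, and each had an exact permutation p of 0.143. MT-ATP8 and MT-ND4L, whose ends lie inside MT-ATP6 and MT-ND4, had 1 to 11 and 18 to 41 counts a library. How reads that span both partners of such a pair were assigned was not tested, so the split between them is uncertain. Of the 22 tRNA genes, 19 were at 0 in all libraries, which allows up to 1.86 to 1.96 CPM per library, and MT-TL1, MT-TV and MT-TG had 1 count each. That limit covers only RNA that was made into cDNA. Whether RNAs this short were taken up was not tested, so it does not bound the tRNAs in the cells. Nuclear pseudogenes of mitochondrial genes can share reads with them. Of 404 such genes in the table only 2 had any count, MTND2P28 and MTND4P12, with 1 count each. The authors kept only reads with a mapping quality above 50, which can remove reads that fit both a mitochondrial gene and a nuclear copy. The low counts of the copies therefore cannot show how many reads were shared. Reads of the mitochondrial genes may have been lost in the same way, which was not tested.

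The nuclear genes that maintain, transcribe, process and translate mitochondrial RNA were read from the same edgeR fit in 5 lists. Of their 72 genes 61 were tested, and none passed the adjusted threshold in either direction, where 5.54% of all genes tested did. At an unadjusted p under 0.05 there were 12 of the 61, beside 19.2% of all genes tested. By DESeq2 and limma-voom none passed either, and with no filter on low counts edgeR called 1, TBRG4 (adjusted p = 0.0461). That setting called 279 lower and 216 higher of 16474 genes tested. The median log2 fold changes were 0.04 for DNA maintenance (12 tested), 0.18 for transcription (6 tested), 0.18 for RNA processing and modification (21 tested), 0.0027 for RNA stability and decay (11 tested) and -0.0021 for translation factors (11 tested).

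The genes of these lists with the largest differences had the following values. GRSF1, an RNA-binding protein of mitochondrial RNA granules, had 14, 14, 7 and 13 counts in the shPTBP1 libraries and 26, 21, 21 and 22 in the shSCR libraries. The groups did not overlap, with a log2 fold change of -0.88 ± 0.25 (SE) and an adjusted p of 0.0592 in edgeR. TBRG4 (also FASTKD4), which is known to stabilise several mitochondrial mRNAs, had 114, 83, 77 and 58 counts against 102, 130, 124 and 116. Its shPTBP1 replicate 1 lay within the shSCR range and the other 3 below it, with a log2 fold change of -0.49 ± 0.17 and an adjusted p of 0.111 in edgeR. Without shPTBP1 replicate 1 it was -0.67 ± 0.15, with an adjusted p of 0.0304 in edgeR. The call of TBRG4 thus turned on this library, and also on the filter. With no filter on low counts it was called with all libraries (adjusted p = 0.0461, edgeR).

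TACO1, a translational activator of MT-CO1, had 9, 15, 14 and 16 counts in the shPTBP1 libraries and 16, 30, 17 and 33 in the shSCR libraries, with a log2 fold change of -0.81 ± 0.30 (SE) and an adjusted p of 0.152 in edgeR. TFAM, which packages mitochondrial DNA and starts its transcription, had 41, 56, 33 and 34 counts against 16, 27, 24 and 42, and the groups overlapped through shSCR replicate 4. Its log2 fold change was 0.60 ± 0.27 (adjusted p = 0.245, edgeR). TOP1MT, a mitochondrial topoisomerase, had a log2 fold change of -0.47 ± 0.15 and DNA2, a nuclease and helicase, 0.41 ± 0.18, with adjusted p values of 0.0816 and 0.239 in edgeR. The transcription elongation factor TEFM (0.27), the tRNA-modifying enzyme GTPBP3 (0.60), the tRNA 3′ processing enzyme ELAC2 (0.49) and the translation elongation factor TSFM (0.33) had log2 fold changes with adjusted p values from 0.291 to 0.400 in edgeR.

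The nuclear subunits of the same complexes were counted beside the mitochondrial ones. Counts of 75 nuclear genes of complexes I, III, IV and V summed to 41269 ± 1094 CPM (SD, n = 4) in the shPTBP1 group and 40165 ± 1320.0 CPM (SD, n = 4) in the shSCR group. Relative to the 10 mitochondrial mRNAs they gave a ratio of 7.40, 8.38, 8.24 and 7.27 in the shPTBP1 libraries and 6.96, 10.4, 8.25 and 7.91 in the shSCR libraries. The highest ratio was that of shSCR replicate 2, where the nuclear sum was also the lowest, at 38583 CPM beside 39634 to 41951 CPM in the others. The log2 difference was -0.09 with all libraries and 0.02 without it, with exact permutation p values of 0.600 and 0.886.

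Among single nuclear subunits, 4 of the 75 passed the adjusted threshold, a share near the 5.54% of all genes tested, and they are named here after their values were seen. UQCRC2 of complex III rose (log2 fold change 0.39 ± 0.068 SE), as did ATP5MC1 of ATP synthase (0.35 ± 0.061) and NDUFB8 of complex I (0.30 ± 0.081), with adjusted p values of 0.00607, 0.0051 and 0.0453 in edgeR. NDUFC1 of complex I fell by 0.67 ± 0.13 on the log2 scale (adjusted p = 0.00944, edgeR). None of the 11 nuclear subunits of complex IV passed, with log2 fold changes from -0.26 to 0.12, beside those of 0.47, 0.11 and -0.10 of its mitochondrial subunits MT-CO1, MT-CO2 and MT-CO3.

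The nuclear genes whose level was most like the summed level of the 10 mRNAs over the 8 libraries are given as a description. The highest Pearson correlations of log2 levels per 1000000 counts outside the mitochondrial chromosome belonged to MACIR (0.987), SENP3-EIF4A1 (0.984), MRPL4 (0.972), CAMSAP2 (0.964) and AGFG1 (0.962). The lowest belonged to PDCD6 (-0.965), MLF2 (-0.953), TSPAN3 (-0.949), TPD52L2 (-0.947) and MGAT1 (-0.946). They were picked from all nuclear genes tested, the libraries share their depth and total, and shSCR replicate 2 carries much of the range of the sum. Without it the correlations were 0.733 (AGFG1) to 0.949 (MACIR) for the first 5 and -0.928 (PDCD6) to -0.644 (MGAT1) for the last 5. Several of these genes had few counts a library, such as AGFG1 (0 to 18), CAMSAP2 (3 to 16) and MGAT1 (12 to 23). MRPL4 encodes a protein of the mitochondrial ribosome.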

How the data were processed

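RNA was isolated from MOLM-13 cells after 9 days of dox, in 4 shPTBP1 and 4 shSCR samples. The authors sequenced full-length cDNA on a nanopore instrument, used minimap2 for alignment to hg38, kept a mapping quality above 50 and counted transcripts with StringTie. Tool versions and the annotation are not given in the sources used here. The authors tested genes with DESeq2.

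The deposited counts are whole numbers per transcript without normalization. The second deposited table holds CPM, which the authors made by dividing each count by its library total per 1000000, without transcript length (checked to within 1e-06). Per the labels, columns were matched to samples by name, and 0 columns were left without a sample. Counts were added per gene through GENCODE version 44, which held 252562 of 254070 transcripts. The other 1508 stayed in the library totals alone.

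The mRNAs, gene lists, ratios and tests were chosen with earlier results of these data known. All genes were fitted with edgeR 4.0.16 (TMM, filterByExpr, quasi-likelihood test, Benjamini-Hochberg adjustment over 7597 genes, threshold 0.05). Sums, shares and ratios were compared by exact two-sided permutation tests over libraries. Totals of 1528449 to 1613342 counts gave each library 5685 to 9290 counts on the 10 mRNAs. Intervals and the limit of 3 counts for a count of 0 cover counting error alone, since the cDNA was amplified by PCR.

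Named were the 10 mRNAs, other genes of the chromosome with a count, PTBP1, per nuclear list the genes called or else the 2 with the largest absolute log2 fold change, the nuclear copies with the largest counts, and the 5 nuclear genes with the highest and the 5 with the lowest correlation to the summed level (pseudocount 1). Alternatives were DESeq2 1.42.0, limma-voom 3.58.1, DESeq2's size factors, normalization on nuclear genes, other filters, the replicate number as a block, other denominators and leaving out each library. Sums and shares without MT-ATP6 were added after the data were seen. The edgeR script was tested on simulated data. A marker of the list for other cell types is not reported here. Software versions were scipy 1.17.1, pandas 2.3.3, numpy 2.4.6, Python 3.11.15, matplotlib 3.10.9 and R 4.3.3.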

Additional observations from a re-analysis of the deposited data

Results flagged for a closer look

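In 60 groups of 4 libraries (levels, shares, ratios and sums), 8 held a library whose gap to the nearest other, relative to the group's range, was over Dixon's 95% critical value, which chance passes in about 1 of 20 groups. The 60 are not independent, since many share libraries and counts. Of the 8, 5 were shPTBP1 replicate 1: MT-ATP6 at 472 CPM, its share of 8.81%, its ratio of 1.20 to MT-CO3, MT-ND6 at 121 CPM and MT-ND5 at 286 CPM, low in the last and high in the others. The other 3 were shSCR replicate 2, all low: MT-ND1 at 443 CPM, MT-ND1 to MT-CYB at 0.974 and MT-CO2 to MT-CO3 at 2.45. No explanation of these values was tested.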

How the results depend on the processing

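With no filter on low counts, edgeR called 2 of the 10 mRNAs in place of 0, MT-CO1 (log2 fold change 0.48, adjusted p = 0.00806) and MT-ATP6 (0.97, adjusted p = 0.00526), and 1 of the nuclear lists' genes, TBRG4, in place of 0. Over all genes it called 279 lower and 216 higher of 16474 tested. The cause of these added calls was not tested. The replicate numbers did not pair the libraries (correlations of -0.0328 to 0.00889 between same-numbered libraries, none of which was best with its own number). With the replicate number as a block edgeR called 1 of the 10, MT-CO1 (0.49, adjusted p = 0.0265), while calls over all genes went from 242 lower and 179 higher to 186 and 137. PTBP1 kept its direction and call in all 14 alternatives that tested it. It had too few counts for the limit of 50. Over the log2 of each mRNA to the geometric mean of the 10, 1 share in place of 2 did not overlap, that of MT-CO3.

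Leaving out 1 library at a time, the difference of the summed level ranged from -7.26 to 656 CPM, that of the nuclear to mitochondrial ratio from -0.17 to 0.023 (log2), and the number of shares not overlapping from 2 to 3, of ratios from 2 to 4, of mRNAs called from 0 to 0 and of listed nuclear genes called from 0 to 1. Both sign changes came without shSCR replicate 2. Values near 0 changed sign. For MT-ND1 the log2 fold change was 0.0023 by DESeq2, 0.022 by limma-voom, 0.00062 with no filter and 0.017 with the block, and between -0.16 and 0.056 when single libraries were left out. In the same way MT-CO2 ranged from -0.0083 to 0.20, MT-ND3 from -0.11 to 0.23 and MT-CYB from -0.010 to 0.14. The share of MT-ND4 gave -0.015 on the geometric scale and that of MT-ND5 0.098 percentage points without MT-ATP6. The shares of MT-CO2 (-0.92 to 0.21), MT-ND3 (-0.12 to 0.094), MT-ND5 (-0.23 to 0.38 percentage points) and the log2 ratios MT-ND4 to MT-ND5 (-0.062 to 0.11) and complex I to complex IV (-0.0088 to 0.040) also changed sign. MT-ND3 had 58 to 124 counts a library, where small differences were not detectable.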
